A study of Rattus norvegicus with 6 samples.

Results

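The cerebellar Purkinje and granule lineage genes examined here are 33 genes listed by symbol. The authors' annotated peak table names 14390 genes. Of the 33, 28 are named in that table, with 594 of its 159452 peaks assigned to them, and 5 (Pcp2, En1, Rora, Pvalb and Eomes) are not. The data come from chromatin immunoprecipitation followed by sequencing (ChIP-seq) in PC12, a rat adrenal tumour line derived from the neural crest, at passages 18 to 20. One line stably expressed human α1ACT, a transcription factor encoded within the calcium channel gene CACNA1A, and is titled Q11 in the labels. The other stably carried the empty pCDNA3 vector (EV). From each line came 1 library precipitated with an antibody labelled 1804, 1 with the anti-FLAG antibody M2, and 1 input. What 1804 recognises, and whether a line is 1 clone, the labels do not say. The design text mentions day 3 and tissues, but every sample is labelled as PC12. The cells are thus not cerebellar by their labels, and what is described is where peaks lay at cerebellar genes in a chromaffin-type tumour line. Each group holds 1 library, so no difference between conditions has a replicate check and no p-value is given. The inputs have no peak list used here.

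The Purkinje cell is the GABAergic output neuron of the cerebellar cortex, and the granule cell is its numerous excitatory partner. Granule cell precursors arise from Atoh1-positive cells of the rhombic lip and proliferate under Sonic hedgehog released by Purkinje cells. Hedgehog acts by relieving the block that the receptor Ptch1 places on Smo, after which Gli transcription factors act in the nucleus. Reelin, secreted by granule cells, guides Purkinje cell placement through the adaptor Dab1. The series title asks about α1ACT in early cerebellar programming.

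In α1ACT cells the peaks at these genes were mostly far from the genes. The table holds 159452 of the 161730 peaks of the α1ACT 1804 library. Of these, 0 overlap a peak of either EV list, and they are called α1ACT-only below. The EV lists are short, with 272 peaks for 1804 and 244 for M2, so few overlaps were possible. The name marks absence from those lists, and specificity to α1ACT cells was not tested. A further 2278 peaks of the α1ACT 1804 library are not in the table, of which 194 overlap an EV peak. Why the rest were left out is not stated. Each α1ACT-only peak is 56 bp wide on the rat build rn5, and its gene is the one the authors assigned. Of the 594, 475 (80.0%, 95% interval 76.5 to 83.1) were distal intergenic, against 74.6% of all peaks in the table. A further 90 (15.2%) were intronic, against 16.2% of all peaks. Within 1000 bp of the transcription start site (TSS) lay 12 peaks (2.02%, 1.05 to 3.50), against 5.75% of all peaks. The remaining 17 lay in exons, a 3' UTR, gene flanks or 1 to 3 kb from the TSS. The median distance to the TSS was 189 kb for these genes and 119 kb for all peaks. Without Etv1 and Mab21l1, the 2 genes with the most peaks, the other 391 peaks had a median distance of 126 kb and a distal share of 76.0% (71.4 to 80.1), both near the values of all peaks, while the share near the TSS was 2.30%. Intervals here are exact binomial (Clopper-Pearson). They cover counting error only, and neighbouring peaks are not independent.

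**Figure D1:**
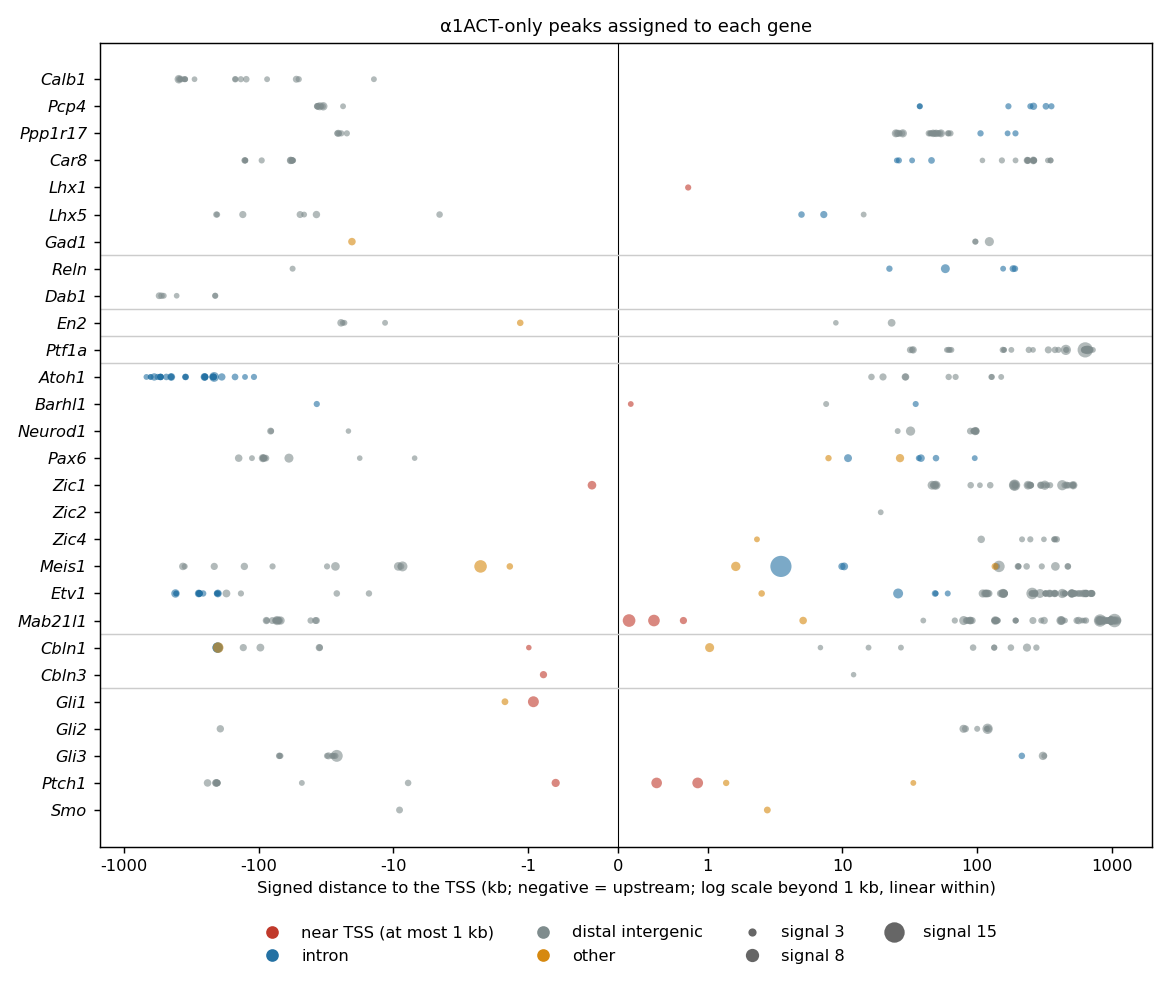
Each point is 1 α1ACT-only peak, placed by its signed distance to the TSS in kb (log scale beyond 1 kb, linear within it) in the row of the gene it is assigned to, coloured by class and sized by the authors' signal. Horizontal lines divide roles. Few points lie in the centre: 12 peaks of 8 genes are within 1 kb of a TSS, and those of Mab21l1 and Etv1 reach far downstream.

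By gene, 8 of the 33 (24.2%, 11.1 to 42.3) had a peak within 1000 bp of the TSS. The background was 43.2% of the genes named in the table and 32.9% of 18539 curated protein-coding genes. Of the 28 named in the table the share was 28.6%, with an interval (13.2 to 48.7) that holds the 43.2%; this denominator was chosen after seeing the data. The interval of the 33 ends just below 43.2% and holds the 32.9%. Each share of the 33 counts the 5 unnamed members as without a peak, whereas every gene named in the table has an assigned peak. Within 500 bp the count was 4 genes (12.1%), against 38.4% of genes named in the table and 29.3% of curated genes. Within 3000 bp it was 13 genes (39.4%), against 52.3% and 39.6%. Counting peaks in the upper 50% by signal left 5 genes (15.2%), against 35.3% and 26.9%, and in the upper 10% 4 genes (12.1%), against 19.7% and 15.1%. The 8 genes were Mab21l1, Zic1 and Barhl1 of the granule lineage, Cbln1 and Cbln3, Gli1 and Ptch1 of the hedgehog pathway, and Lhx1 of the Purkinje lineage. Their 12 peaks had a median signal of 5.07, and all 9175 peaks near a TSS in the table one of 4.36. The signal is the authors' value per peak, used here to rank peaks within this list. Of the 12, 5 lay within 500 bp (41.7%), against 79.0% of all peaks near a TSS. In 4 of the 8 genes no peak was nearer than 500 bp, and 7 of the 12 peaks (58.3%) lay downstream of the TSS, against 66.6% of all peaks near a TSS that lay over or downstream of it. Distances are as deposited. For genes on the minus strand they run to the nearer edge of the 56 bp peak, and for genes on the plus strand to the farther edge (99.5% of those peaks).

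Among granule lineage factors Mab21l1 had the strongest start-site signal. Mab21l1 encodes a Mab-21 family protein needed for eye development in mice. Of its 3 peaks near the TSS, the first was 125 bp downstream (chromosome 2, 164587855 to 164587910). Its signal of 9.17 was above 98.9% of α1ACT-only peaks. The second, 402 bp downstream, had 8.17 and the third, 730 bp downstream, 3.88. All 3 lay on the downstream side, within the 2.39 kb gene.

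The promoter of Mab21l1 is shown because the gene carried the highest start-site signal of the 33. The sequence is RefSeq's for build GRCr8 (chr2:142093368-142093667, plus strand), 250 bases before the annotated start and 50 after it. Capitals mark 2 motifs searched for on both strands, the A/T-rich hexamer TTATAA and the E-box CANNTG that proneural factors such as Atoh1 and Neurod1 recognise.
Mab21l1 promoter: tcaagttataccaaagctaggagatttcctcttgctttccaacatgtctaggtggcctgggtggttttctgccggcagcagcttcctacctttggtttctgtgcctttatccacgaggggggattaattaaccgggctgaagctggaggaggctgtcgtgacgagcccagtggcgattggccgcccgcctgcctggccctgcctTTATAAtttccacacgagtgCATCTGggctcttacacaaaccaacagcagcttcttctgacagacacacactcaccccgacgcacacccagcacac
TTATAA begins at position −46 from the start and CATCTG at −26, and the matches do not overlap. Of 27457 RefSeq promoters, 6.00% hold TTATAA and 71.6% hold CANNTG. The peaks are placed by the authors' rn5 annotation, whose TSS may differ from that of RefSeq. In rn5 the nearer edge of the first peak was 70 bp downstream of the TSS.

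Zic1, a zinc-finger factor of granule precursors, had 1 peak near the TSS, 288 bp upstream (chromosome 8, 98230268 to 98230323), at a signal of 5.28. Zic1 and Zic4 are a divergent pair whose starts lie 16907 bp apart, and this peak was the 1 peak between them. The nearest peak of Zic4 was 2322 bp inside that gene, with a signal of 2.43. Zic2 was assigned 1 peak, 19.3 kb downstream, with a signal of 2.34. So of the 3 Zic genes 1 had a start-site peak. Barhl1, a homeobox gene of granule precursors, had 1 peak 144 bp downstream (chromosome 3, 12848582 to 12848637), whose signal of 2.37 was above 14.4% of α1ACT-only peaks.

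Meis1, a homeobox cofactor expressed in granule cells, had the highest signal of all 594 peaks, although none of its peaks was within 1000 bp. That peak lay in an intron of Meis1, 3497 bp downstream of the TSS (chromosome 14, 103060416 to 103060471). Its signal was 17.6, above 99.9% of α1ACT-only peaks. Of the 28 peaks assigned to Meis1, 8 lay within 10 kb of the TSS, with a median signal of 5.62. They included peaks 2250 bp upstream (9.07), 1617 bp downstream (5.98) and 1365 bp upstream (3.18). Counting every peak within 10 kb of the TSS, Meis1 had more than 98.6% of the genes named in the table.

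No peak lay near the TSS of Atoh1, Neurod1, Pax6 or Etv1. The nearest one was 16.4 kb from the start of Atoh1, the proneural factor that specifies granule precursors. For Neurod1, which acts in granule cell differentiation, it was 21.5 kb away, with a signal of 2.01. For Pax6, a paired-box factor of granule precursors, it was 6.94 kb upstream, with 2.10. For Etv1, an ETS factor of maturing granule cells, it was 2516 bp downstream, with 3.18.

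Of the hedgehog genes, Gli1 and Ptch1, both known as transcriptional targets of the pathway, had peaks near the TSS. The single start-site peak of Gli1, the activator, lay 940 bp upstream (chromosome 7, 70805183 to 70805238). Its signal of 7.49 was above 97.4% of α1ACT-only peaks of all classes. Of all peaks near a TSS, 37.1% were in the upper 10% by signal. A second Gli1 peak, 1483 bp upstream, had 3.46, and no other peak was assigned to the gene. Ptch1, the receptor, had 3 peaks near the TSS on chromosome 17. Those 889 bp (1078617 to 1078672) and 432 bp (1079074 to 1079129) downstream had signals of 7.32 and 7.21, and 1 lying 692 bp upstream had 4.85. All 3 were above the median of 4.36 for peaks near a TSS.

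The Ptch1 promoter is shown because the gene had 3 start-site peaks and is a textbook Gli target. It is RefSeq's for GRCr8 (chr17:1555321-1555620, plus strand; the gene is on the minus strand of rn5), cut as above, and capitals mark the Gli consensus GACCACCCA and CANNTG on either strand.
Ptch1 promoter: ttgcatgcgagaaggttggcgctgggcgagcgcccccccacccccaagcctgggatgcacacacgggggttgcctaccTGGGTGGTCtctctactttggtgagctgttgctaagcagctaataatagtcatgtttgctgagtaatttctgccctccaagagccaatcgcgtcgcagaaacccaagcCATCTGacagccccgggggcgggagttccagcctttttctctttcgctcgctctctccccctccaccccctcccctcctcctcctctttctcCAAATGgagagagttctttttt
The Gli consensus is present on the opposite strand as TGGGTGGTC, beginning at −172. CATCTG begins at −64 and CAAATG at 29, and none of the 3 overlap. GACCACCCA is held by 0.379% of the 27457 promoters. Among the 25 of the 33 genes that matched the RefSeq table, Ptch1 was the 1 that held it. Of the genes with a start-site peak, Gli1, Zic1, Barhl1, Cbln1 and Cbln3 did not match and could not be searched. A match of letters is a description of sequence and not a site of occupancy.

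The other hedgehog genes had no start-site peak. Smo, the signal transducer, was assigned 2 peaks, 2772 bp downstream (3.50) and 8984 bp upstream (3.55). Gli2, the main activator of hedgehog transcription, was assigned 8, none nearer than 79.2 kb and the highest at 6.93. Gli3, the main repressor form, was assigned 13. Its highest, 26.3 kb upstream (chromosome 17, 50655742 to 50655797), reached 8.46. The next peaks upstream were 26895 bp and 27384 bp away with signals of 2.91 and 2.30.

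The cerebellins Cbln1 and Cbln3, which granule cells secrete, both had a start-site peak near the edge of the limit. The Cbln3 peak, 828 bp upstream (chromosome 15, 38439976 to 38440031), had 3.93. The Cbln1 peak, 991 bp upstream (chromosome 19, 31616924 to 31616979), had 2.07, above 2.66% of α1ACT-only peaks. Just outside the limit lay a stronger Cbln1 peak, 1034 bp downstream with 5.66, whose nearer edge was 979 bp from the TSS, and an En2 peak 1142 bp upstream with 3.20.

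Purkinje genes had the lowest median signal of the 3 roles with the most genes. Of the 10, 7 were named in the table and 1, the LIM-homeobox gene Lhx1, had a start-site peak. It lay 783 bp downstream (chromosome 10, 71757381 to 71757436). Its signal of 2.80 was below the overall median of 3.02, and it was the 1 peak assigned to Lhx1. Of the 110 peaks at Purkinje genes, 1 (0.909%) was in the upper 10% of α1ACT-only peaks by signal, against 37 of 363 (10.2%) at granule lineage genes and 5 of 41 (12.2%) at hedgehog genes. The 110 had a median signal of 2.78, the granule lineage peaks one of 3.13 and the hedgehog peaks one of 3.21. A few genes carried these pooled shares. Of the Purkinje peaks Car8 had 33, Ppp1r17 30 and Calb1 17, and of the granule lineage peaks Etv1 had 107 and Mab21l1 96. Of the 37, Mab21l1 held 12, Zic1 9, Meis1 7 and Etv1 6. By gene, 1 of the 7 named Purkinje genes and 7 of the 10 granule lineage genes had a peak in the upper 10%. The share of all named genes with such a peak was not computed. Genes with more peaks have more chances to hold one. Counting unnamed members as having none, the median was 7 assigned peaks per Purkinje gene and 23.5 per granule lineage gene. The counts by gene are thus not corrected for peak number. Whether these roles differ was not tested.

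The nearest peak to the calcium-binding protein gene Calb1 was 13.9 kb upstream, with a signal of 2.43. That of Pcp4, the calmodulin regulator, was 23.6 kb upstream, with 2.43. All 17 peaks assigned to Calb1 were upstream of it. For Ppp1r17, a phosphatase inhibitor of Purkinje cells, 30 peaks were assigned, the nearest 22.1 kb upstream with 2.77. Car8, a carbonic anhydrase-related protein that binds the inositol trisphosphate receptor, had 33, the nearest 25.3 kb downstream with 2.37. Lhx5, the partner of Lhx1, had its nearest peak 4.53 kb upstream with 3.18. Gad1, a GABA-synthesising enzyme, had 4 peaks. The highest of them, 123 kb downstream with 5.73, was the 1 Purkinje peak in the upper 10%.

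Reelin signalling genes held few peaks for their size. Reln spans 426 kb in the table, and the 5 intronic peaks assigned to it had signals from 2.43 to 5.55. The 244 kb body of Dab1 held 0 peaks, and the nearest lay 209 kb upstream with 2.77. En2, a homeobox gene of midbrain-hindbrain patterning, was assigned 7 peaks, the highest at 4.41. Ptf1a, which specifies cerebellar GABAergic neurons, was assigned 41, all distal and downstream. The nearest was 31.9 kb from the TSS. The highest, 634 kb away (chromosome 17, 88545014 to 88545069), had 11.7, the second-highest signal of the 594. Rora, Pcp2, Pvalb, En1 and Eomes are among the curated protein-coding genes by symbol but are not named in the table. Having any assigned peak, as 28 of 33 members did (84.8%), was true of 74.7% of curated protein-coding genes.

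Many intronic peaks assigned to these genes lay in other genes. An intronic peak was assigned to 12 of the 33 genes (36.4%), against 43.4% of genes named in the table and 32.8% of curated genes. A peak in an intron of the gene itself was held by 8 (24.2%), against 33.7% and 26.0%. Of the 90 intronic peaks, 22 were in the gene's own intron, and their median signal was 3.18. The other 68 lay in a neighbour, with a median of 2.80. Of the 20 intronic peaks of Etv1, 16 lay within the diacylglycerol kinase gene Dgkb and 4 within Etv1, the highest of these at 6.55. The 4 assigned to Pax6 from outside lay in Elp4, which in human and mouse contains Pax6 enhancers, with a highest signal of 4.25, and 1 lay in Pax6 itself. The 2 assigned to Cbln1 lay in Zfp423, a zinc-finger gene of cerebellar development, with 7.28 and 6.57.

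**Figure D2:**
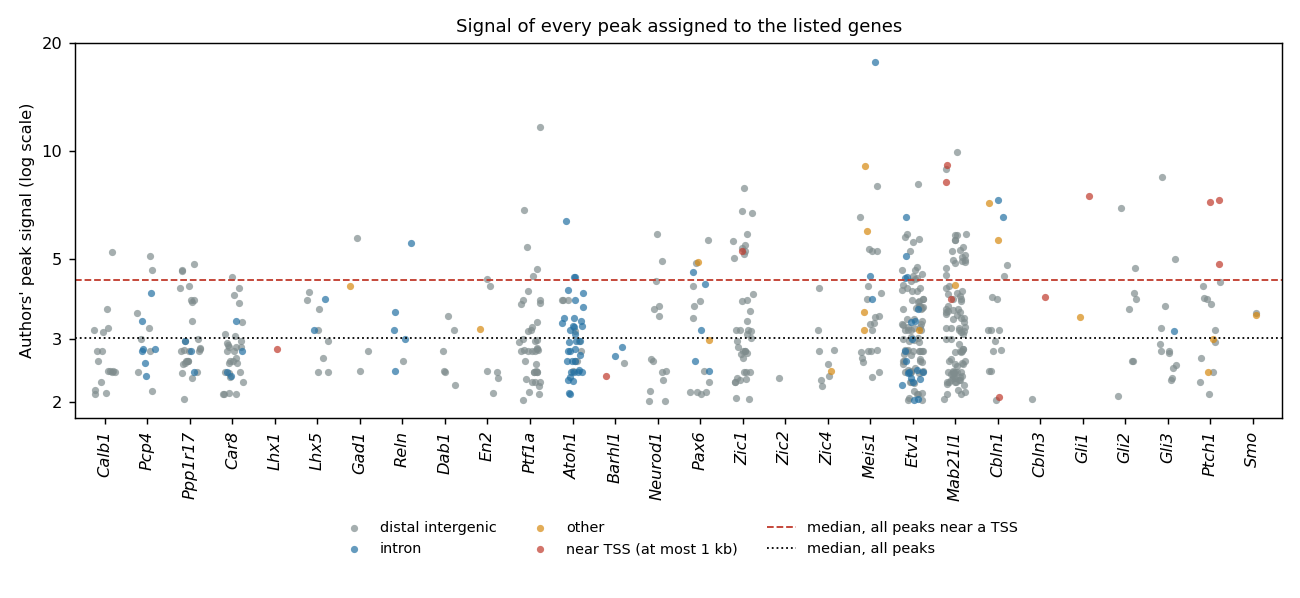
The authors' signal (log scale) of each of the 594 peaks is plotted by gene and coloured by class, with dashed and dotted lines at the medians of all peaks near a TSS (4.36) and of all peaks (3.02). The highest point of Meis1 is 17.6 and of Ptf1a 11.7. Points of Purkinje genes reach at most 5.73 (Gad1). Low maxima also occur in other roles, such as 2.34 for Zic2, 2.84 for Barhl1 and 3.55 for Smo.

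Distal peaks were concentrated on a few genes. A distal peak was assigned to 26 of the 33 genes (78.8%), against 64.7% of genes named in the table and 48.2% of curated genes. Of the 475 distal peaks Mab21l1 held 92 and Etv1 86, together 37.5%. With Ptf1a (41) and Zic1 (39) they held 54.3%. Counting all classes, Etv1 was assigned 107 peaks, Mab21l1 96 and Atoh1 45, of which 9 were distal. The median was 13.5 peaks of all classes per named member, and 4 over all genes in the table. Etv1 had 82 peaks 100 kb or more downstream of its TSS, the highest at 8.11 and 256 kb away. Mab21l1 had 39 peaks 700 kb or more downstream, with a median signal of 3.18. The highest of them, 1046 kb away (chromosome 2, 165633827 to 165633882), had 9.96. Of the 40 Zic1 peaks 39 were downstream, with the highest, 190 kb away, at 7.90. Each of the 594 lay nearer to the TSS of its own gene than to that of any other gene named in the table. Assignment of peaks to the nearest TSS gives this outcome by itself, so it does not show that a peak acts on its gene. Nbea, in whose intron Mab21l1 lies in human and mouse, is not named in the table. Whether any of the 92 distal peaks of Mab21l1, called intergenic by the authors' annotation, lie within Nbea could therefore not be told. The median signal of the 475 distal peaks was 2.94, and that of all distal peaks 2.98.

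In a window of fixed size, where a peak may count for several genes, these genes did not hold more peaks than others. Within 100 kb of the TSS the 28 named genes had a median of 8.5 peaks (middle 50% from 6.75 to 12.3), against 11 for the other 14362 named genes (7 to 17). Ppp1r17 and Mab21l1 had 31 each, more than 96.5% of the genes named in the table. Next were Pax6 with 17 and Neurod1 with 16. Ppp1r17 had 1 of its 31 in the upper 10% by signal and Mab21l1 4, while Meis1 had 5 of 12. Etv1, with the most assigned peaks, had 7, Reln 3, Gli2 2 and Dab1 0. Within gene bodies there were 40 peaks in 1625 kb, or 2.46 per 100 kb, against 5.41 per 100 kb in the other named genes. In 13 of the 28 genes the body held none, which was so for 36.2% of the other named genes. The 3 longest, Reln, Gli3 (269 kb) and Dab1, held 7, 1 and 0 peaks.

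**Figure D3:**
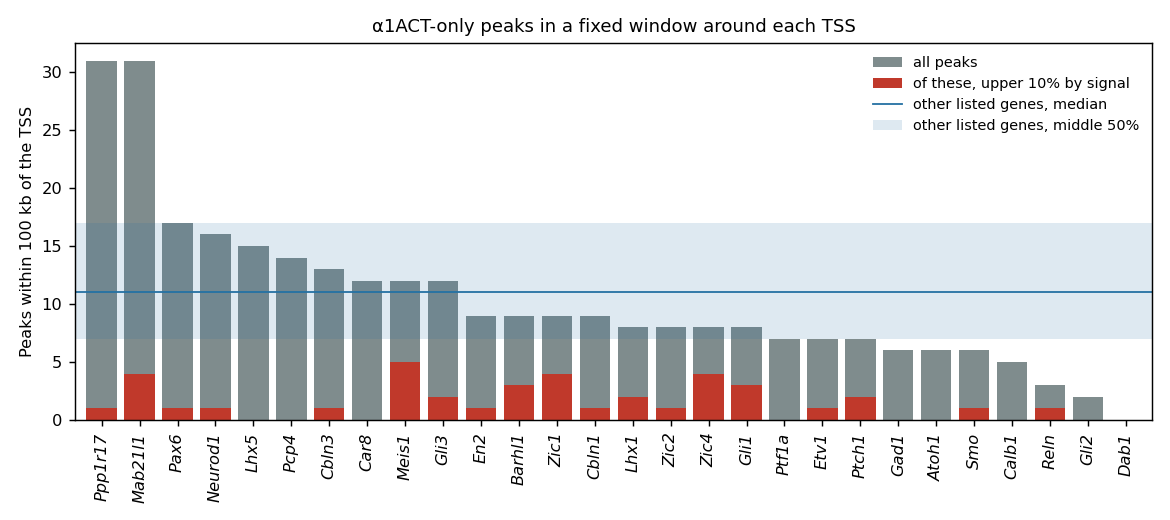
Bars give the number of α1ACT-only peaks within 100 kb of each TSS, with those in the upper 10% by signal in red. The band and line give the middle 50% (7 to 17) and median (11) of the other named genes. Ppp1r17 and Mab21l1, with 31 each, stand above the band, and Dab1, with 0, has no bar.

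Further genes of the same pathways ranged widely in their share with a start-site peak. Of 14 further Purkinje genes 4 had a start-site peak (28.6%), among them the phospholipase gene Plcb4 with a signal of 9.62. Of 14 further granule genes 2 did (14.3%), namely the receptor subunit gene Grin2c with 3.52 and the vesicular transporter gene Slc17a7 with 2.39. Of 13 further hedgehog genes 4 did (30.8%), led by Sufu, a negative regulator of Gli proteins, with 6.78. The ligand Shh had 4.02. Of 8 further reelin pathway genes 5 did (62.5%, 24.5 to 91.5), with the dynein regulator Pafah1b1 at 13.2 and the reelin receptor Vldlr at 10.7. The 33 lineage genes stood at 24.2%, and 22 chromaffin and sympathetic genes, the lineage nearest to PC12 cells, at 45.5% (24.4 to 67.8). The background was 43.2% of genes named in the table and 32.9% of curated genes. Both values lie within the interval of the chromaffin and sympathetic genes, and whether the lists differ was not tested. Among the 10 chromaffin and sympathetic genes with a start-site peak, the homeobox gene Phox2a had 9.74, the granin gene Chga 9.26 and the catecholamine enzyme gene Th 8.79. The 12 genes of glia and other tissues stood at 33.3% (9.92 to 65.1).

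**Figure D4:**
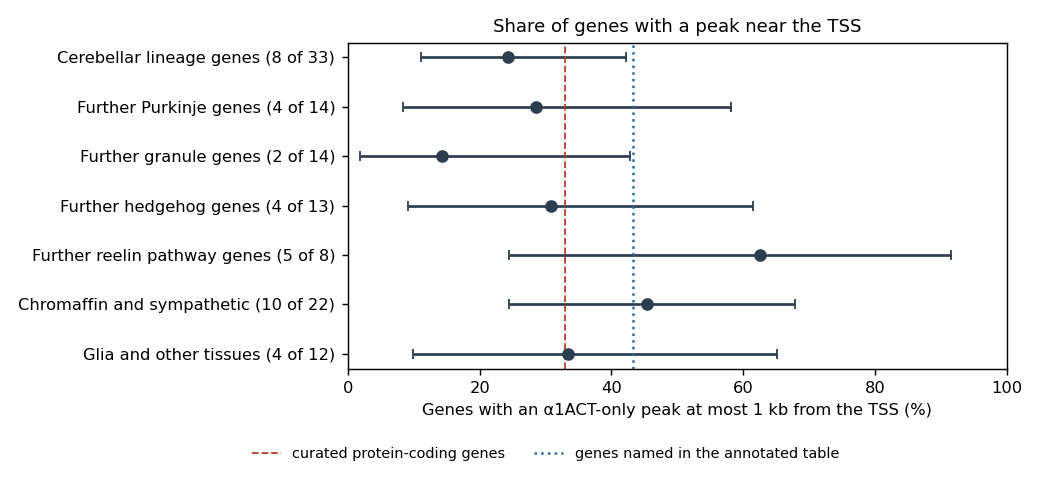
Points give the share of genes in each list with an α1ACT-only peak at most 1 kb from the TSS, and bars the exact 95% binomial interval. Lines mark curated protein-coding genes (32.9%) and genes named in the table (43.2%). The cerebellar lineage genes, at 24.2%, lie left of both lines, with an interval that reaches the first.

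No peak within 100 kb of these genes was in the other 3 lists. The α1ACT 1804 list, with 161730 peaks, held 344 (0.213%) within 100 kb of the 28 gene bodies. The α1ACT M2 list held 0 of 81, which allows a share of up to 3.70%, the EV 1804 list 0 of 272 (up to 1.10%) and the EV M2 list 0 of 244 (up to 1.23%). Each of these limits is above 0.213%, so a share like that of the long list was not detectable in the short ones. The lowest signal was 53.6 in the α1ACT M2 list, 14.0 in the EV 1804 list and 19.0 in the EV M2 list, and 593 of the 594 peaks lay below 14.0. The scaling of signal between libraries is unknown. Within 500 kb, 1 site on chromosome 6, from 68522155 to 68522210 and 370 kb beyond Etv1, was in both M2 lists and, shifted by 1 bp, in both 1804 lists. Its signal in α1ACT cells was 634 with 1804 and 363 with M2, and in EV cells 490 with 1804 and 240 with M2. It is not among the α1ACT-only peaks. The EV 1804 list also held a site 419 kb beyond Calb1 with a signal of 15.0.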

How the data were processed

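ChIP-seq peak lists of 4 precipitated libraries and 1 annotated table were used; no peak list of the 2 inputs was used. The submitters' processing notes name HOMER, ChIPseeker, DiffBind, BWA 0.7.5a and FastQC 0.11.2 with the build rn5, and state no roles. The deposited lists follow the narrowPeak layout, and spp appears in their names; how the peaks were called, and whether inputs served as controls, is not stated. Per the labels, each list comes from 1 library. The authors' peak signal and −log10 q-value are as deposited, and their scaling is not stated. The signed distance to the TSS is the authors' deposited value, to the farther peak edge for plus-strand genes and the nearer for minus-strand genes. Read depth is unknown.

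Signal was joined to the annotated table by chromosome and start (159452 of 159452 peaks). A peak within 1000 bp of the TSS was called near it; other peaks were called intronic or distal from the annotation. Members were matched by symbol, curated protein-coding genes by gene ID to RefSeq (GRCr8). Of the 33 genes 25 (75.8%) matched the RefSeq promoter table, too few for a check of base composition, which was therefore not made. The members and lists were chosen with earlier results of these data known. The lists were matched by symbol, and 4 symbols of the further lists (Skor2, Kitl, Kif7 and Gpr161) were not among the curated genes. Described singly were all members with a peak near the TSS, those with the most peaks or the highest intronic or distal peaks, and those with 1 peak or none. Some items are not reported here. No test was made, since each group holds 1 library. Scripts were checked on simulated data. Python 3.11.15, pandas 2.3.3, scipy 1.17.1 and matplotlib 3.10.9 were used. Alternatives were other TSS distances, signal limits, merging of peaks within 500 bp, gene bodies, backgrounds and window sizes. The nearer-edge distance, the share of only the 28 named members, fixed windows, gene-body density and the values without the 2 genes of most peaks were chosen after seeing the data.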

Additional observations from a re-analysis of the deposited data

How the results depend on the processing

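The number of genes with a start-site peak, 8 of 33, followed the definition: it was 4 within 500 bp (38.4% of genes named in the table, 29.3% of curated genes) and 13 within 3000 bp (52.3%, 39.6%). It was 5 among the upper 50% of peaks by signal (35.3%, 26.9%) and 4 among the upper 10% (19.7%, 15.1%). With distance to the nearer peak edge, chosen after seeing the data, it stayed 8 (43.3% of genes named in the table), and over the 28 named members, likewise, it was 28.6%. In all of these definitions the members' share of 33, which counts the unnamed members as without a peak, stayed below the share of genes named in the table. Within 3000 bp (39.4%) it was close to that of curated genes. Over the 28 named members it was 14.3% (4.03 to 32.7) within 500 bp and 46.4% (27.5 to 66.1) within 3000 bp. In the upper 50% it was 17.9% (6.06 to 36.9) and in the upper 10% 14.3% (4.03 to 32.7). Except within 500 bp, these intervals hold the share of genes named in the table. The background was 32.9% over curated genes and 43.2% over genes named in the table. Of the 594 assigned peaks, 464 were left after merging, 279 in the upper 50%, 51 in the upper 10%, 391 without Etv1 and Mab21l1 (chosen after seeing the data), and 47 over or within 1000 bp of a gene body. The share near the TSS was 3.70% within 3000 bp; without Etv1 and Mab21l1 the distal share was 76.0%, and 2.30% lay near the TSS. Over the other alternatives the shares of intronic and distal peaks stayed within their intervals. The median of 8.5 peaks in the window, also chosen after seeing the data, was 1 within 10 kb and 1 in the upper 10%. Within 500 kb of gene bodies the α1ACT M2 list held 1 peak, the EV 1804 list 2 and the EV M2 list 1. Each of these settings alters which peaks are admitted or which genes are counted. No paired analysis was possible because each group holds 1 library, so no replicate could be left out. Depth is unknown and limits every statement on absence.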
